A study of Rattus norvegicus with 6 samples.

Results

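The genes examined here encode enzymes that build, lengthen and desaturate fatty acids in rat H9c2 cells, namely Acly, Acaca, Fasn, Elovl1, Elovl5, Elovl6, Scd, Scd2, Fads1 and Fads2. They were chosen by name with earlier results of these data known, and all 10 have a row among the 16319 gene symbols of the deposited count table. H9c2 is a myoblast line derived from embryonic rat heart. RNA-seq was performed on 3 libraries of H9c2 cells labelled wild type (WT) and 3 of H9c2 cells labelled Nono gene knockout (Nono-KO), with no further treatment named for either group. The knockout was made with CRISPR/Cas9 and a guide RNA against Nono, an RNA- and DNA-binding protein of the nucleus, followed by puromycin selection, and the study describes a stable line with a homozygous small deletion that ends the protein early. All cells grew in DMEM with fetal bovine serum. The labels name a GFP plasmid as transfection control without saying whether the sequenced WT cells received it, and all 3 Nono-KO libraries carry the same genotype label, so that line differences and the loss of Nono cannot be told apart. The study's methods call the 3 libraries of a group biological replicates, and neither they nor the labels say whether these came from separate cultures. The p-values given here reflect library-to-library spread within each line.

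Cytosolic fatty acid synthesis starts from citrate that leaves the mitochondrion. ATP citrate lyase (Acly) splits it into acetyl-CoA, acetyl-CoA carboxylase (Acaca) turns this into malonyl-CoA, and fatty acid synthase (Fasn) joins these units into palmitate. Elongases of the Elovl family then lengthen the chain in the endoplasmic reticulum. Stearoyl-CoA desaturases (Scd, Scd2) make monounsaturated fatty acids, and the front-end desaturases Fads1 and Fads2 make highly unsaturated fatty acids from dietary precursors. Many of these genes are known targets of the sterol-sensing transcription factors SREBP-1 and SREBP-2, which are encoded by Srebf1 and Srebf2, and of the oxysterol receptors LXR. In heart and muscle the products serve mainly for membranes, and fatty acids for fuel come largely from outside the cell.

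GEO's labels give the source as cardiac muscle. Library totals were 17612958 to 19253858 counts, and 12028 of 16319 genes passed the filter on low counts. Nono itself was counted 7329, 5884 and 5519 times in WT and 109, 94 and 96 times in Nono-KO, so that the knockout level was 1.69% of the WT level. Markers of skeletal myoblasts had a summed level of 572 to 752 CPM (counts scaled by library size with TMM) in WT libraries. In Nono-KO libraries it was 885 to 985 CPM. The sum covers 6 genes with a row, among them Myod1, Myog and Des. It is uneven, as the largest count of a gene in a library was 10799, and 1 gene below the filter did not exceed 13. Of 10 cardiomyocyte markers, Tnnt2 made up most of a summed level of 15.6 to 86.3 CPM in WT and 125 to 152 CPM in Nono-KO, and Ryr2 had 1 count in 1 library. Of 8 fibroblast markers the summed level was 37362 to 45205 CPM in WT and 28839 to 33960 CPM in Nono-KO, with Col1a1 and Col1a2 abundant and Dcn at 1 count in all. Adipocyte and hepatocyte markers, whose tissues make much fatty acid, did not exceed 10 and 6 counts in any library, over 6 and 3 genes with a row. The summed levels of the myoblast, cardiomyocyte and fibroblast markers moved with the genotype. At an edgeR adjusted p under 0.05, 3 of 5 tested myoblast markers rose and 2 did not pass. The cardiomyocyte markers gave the same counts. Of 5 tested fibroblast markers, 3 fell, 1 rose and 1 did not pass. Over all tested genes, 38.1% fell and 34.2% rose. The part of these markers in the results below was not tested. In these bulk samples, fewer cells of a type and less RNA per cell cannot be told apart.

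All 10 genes had lower RNA levels in Nono-KO than in WT cells. Every one fell at an adjusted p under 0.05 (edgeR quasi-likelihood test, Benjamini-Hochberg over all genes tested), whereas 38.1% of all tested genes fell and 34.2% rose. In each of the 10 the highest Nono-KO library lay below the lowest WT library, which was the case for 39.0% of all tested genes. The median log2 fold change of the 10 was -1.05, against -0.05 over all tested genes. As the 10 were chosen with earlier results of these data known, these contrasts describe them and are not an independent test. At the thresholds used in the study, namely adjusted p values below 0.01 with changes beyond 1 log2 unit, 6 of the 10 were lower (Scd, Scd2, Fads1, Fads2, Elovl6 and Acaca), against 18.7% of all tested genes. This count rests on genes close to the threshold. It was 5 with DESeq2, the tool named in the study's methods, where Scd2 lay at -0.98, and 4 to 7 when 1 library was left out, with 4 without WT replicate 2, where Scd2 and Elovl6 did not reach it. The changes were far from equal, from a loss of nearly all Scd RNA to a decrease of Elovl1 to 75.6% of its WT level.

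**Figure D1:**
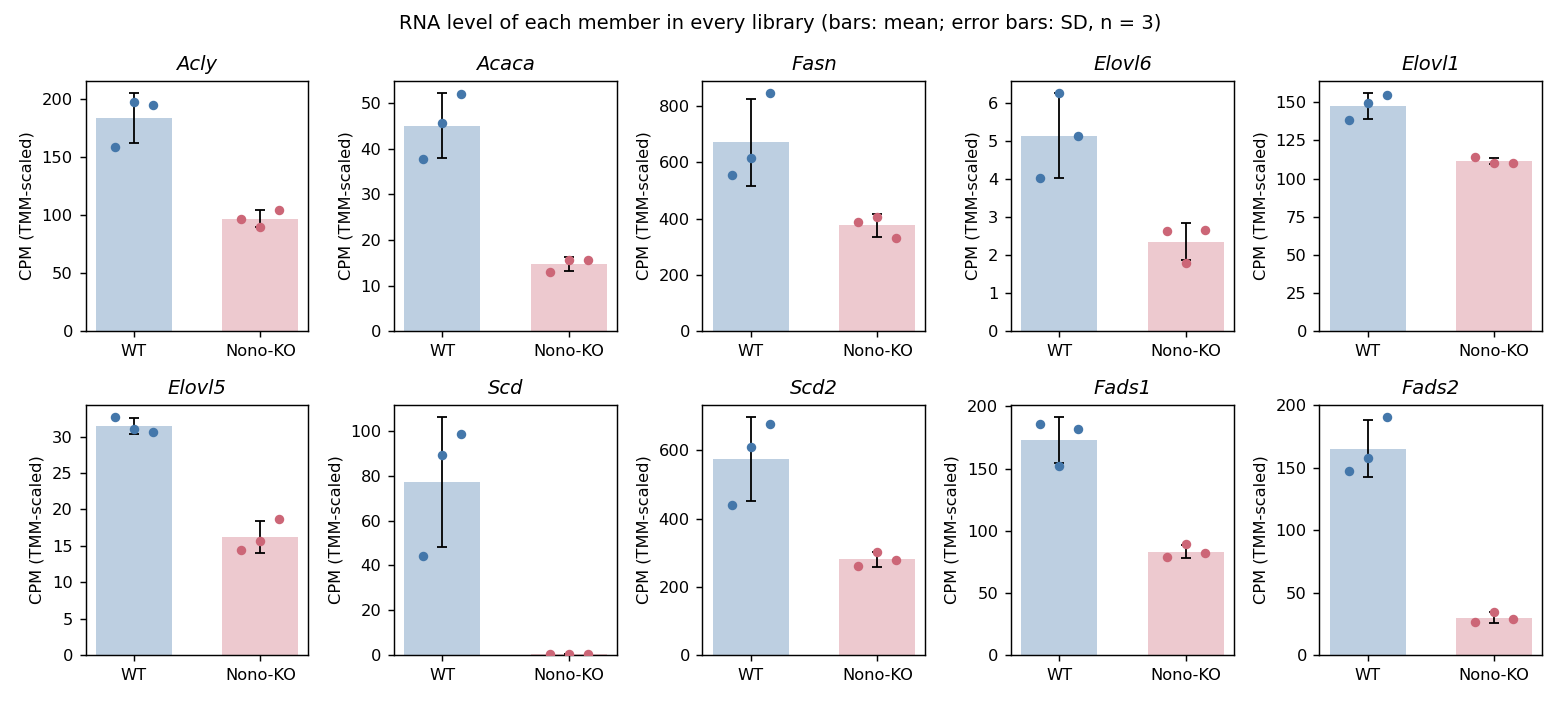
RNA level in CPM after TMM scaling (vertical axes, from 0) of the 10 enzyme genes in WT and Nono-KO cells. Points are the 3 libraries of each group, bars are means and error bars are SD, and in each panel the Nono-KO points lie below the WT points, with Scd at 0.35 to 0.39 CPM.

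Acly and Acaca, which supply acetyl-CoA and malonyl-CoA, fell by unequal amounts. Acly had 159, 198 and 195 CPM in the WT libraries and 96.9, 89.4 and 104 CPM in the Nono-KO libraries. The Nono-KO mean was 52.7% of the WT mean, with a log2 fold change of -0.92 ± 0.10 (SE, edgeR adjusted p = 9.77e-06). Acaca, the cytosolic carboxylase that commits acetyl-CoA to fatty acid synthesis, had 37.8, 45.6 and 52.0 CPM in WT and 12.9, 15.7 and 15.6 CPM in Nono-KO. This was 32.7% of the WT mean and a log2 fold change of -1.61 ± 0.14 (SE, edgeR adjusted p = 1.26e-06), and 7.68% of all tested genes had a lower log2 fold change.

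Fasn, the multidomain synthase that makes palmitate, kept 55.9% of its WT level. Its values were 553, 616 and 846 CPM in WT and 388, 407 and 332 CPM in Nono-KO libraries. WT replicate 3 stood well above the other WT libraries, and the SD was 154 CPM in WT and 39.1 CPM in Nono-KO. The log2 fold change was -0.84 ± 0.14 (SE, edgeR adjusted p = 0.000280), and it ranged from -0.97 without WT replicate 1 to -0.64 without WT replicate 3. Within single libraries, the ratio of Fasn to Acaca counts was 14.6, 13.5 and 16.3 in WT and 30.0, 25.9 and 21.3 in Nono-KO, so that Fasn counts decreased less than Acaca counts in every Nono-KO library relative to every WT library.

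The elongases fell to between 45.8% and 75.6% of their WT levels. Elovl1, which extends saturated and monounsaturated fatty acids to very long chains, had 138, 150 and 155 CPM in WT and 114, 110 and 110 CPM in Nono-KO. Its log2 fold change of -0.40 ± 0.08 (SE, edgeR adjusted p = 0.000840) was the closest to 0 of the 10, and 36.0% of all tested genes had a lower one. Elovl5, which extends polyunsaturated fatty acids made by the Fads enzymes, had 32.7, 31.1 and 30.6 CPM in WT and 14.4, 15.6 and 18.6 CPM in Nono-KO, a log2 fold change of -0.95 ± 0.12 (SE, edgeR adjusted p = 2.32e-05). It was the only gene of the 10 whose spread relative to the mean was wider in Nono-KO than in WT, with a coefficient of variation of 13.4% against 3.57%. Elovl6, which extends palmitate to stearate, was the gene with the fewest WT counts, at 81, 117 and 92 in WT and 45, 32 and 50 in Nono-KO. Its log2 fold change was -1.12 ± 0.24 (SE, edgeR adjusted p = 0.00122), and it ranged from -1.28 without WT replicate 1 to -0.94 without Nono-KO replicate 2.

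Scd RNA was almost absent from Nono-KO cells. Scd, a desaturase that makes oleate and palmitoleate and is highly expressed in lipogenic tissue, was counted 886, 1671 and 1769 times in WT and 6, 7 and 7 times in Nono-KO. This corresponds to 44.1, 89.4 and 98.4 CPM against 0.35, 0.39 and 0.37 CPM. The Nono-KO libraries agreed closely, while WT replicate 1 lay well below the other WT libraries. With 20 counts in all Nono-KO libraries against 4326 in WT, the level relative to WT was 0.487% with an exact 95% interval of 0.297% to 0.752%, which covers counting error only. The fitted log2 fold change of -7.68 ± 0.43 (SE, edgeR adjusted p = 5.96e-07) depends on the prior count, and 0.0499% of tested genes had a lower one. Scd2, the paralog that predominates in brain and many cultured cells, decreased far less, from 439, 612 and 678 CPM in WT to 260, 303 and 279 CPM in Nono-KO. Its log2 fold change was -1.04 ± 0.14 (SE, edgeR adjusted p = 3.90e-05), and it ranged from -1.20 without WT replicate 1 to -0.91 without WT replicate 3.

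Scd and Scd2 are close paralogs, and reads shared between them could have been counted for either or dropped. Scd made up 9.13% (exact 95% interval 8.56% to 9.72%), 12.7% (12.2% to 13.3%) and 12.7% (12.1% to 13.2%) of the counts of both genes in the WT libraries. In the Nono-KO libraries the share was 0.135% (0.0494% to 0.293%), 0.128% (0.0516% to 0.264%) and 0.133% (0.0533% to 0.273%). If every Scd count in Nono-KO came from an Scd2 read, the same share of Scd2 would give 11.6 to 16.0 Scd counts in the WT libraries, where 886 to 1769 were counted. The opposite case, Scd reads counted for Scd2, is not bounded by these values. The mean of Scd2 was lower by 295 CPM in Nono-KO than in WT and that of Scd by 76.9 CPM. With both genes added into 1 row, which no exchange of reads between them can change, the level was 483, 701 and 776 CPM in WT and 261, 304 and 280 CPM in Nono-KO. The log2 fold change of the sum was -1.22 ± 0.15 (SE, edgeR adjusted p = 2.37e-05), leaving 43.1% of the WT mean.

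Fads2 and Fads1, which act in turn on polyunsaturated fatty acids, had fold changes of unequal size. Fads2, the enzyme of the first and rate-limiting desaturation, had 147, 157 and 191 CPM in WT and 26.6, 34.5 and 28.8 CPM in Nono-KO. It retained 18.1% of its WT mean, with a log2 fold change of -2.46 ± 0.13 (SE, edgeR adjusted p = 5.05e-08), and 1.48% of tested genes had a lower one. Fads1, which acts later and yields arachidonic acid, had 186, 152 and 182 CPM in WT and 78.6, 89.2 and 81.7 CPM in Nono-KO. This was 48.0% of the WT mean and a log2 fold change of -1.06 ± 0.10 (SE, edgeR adjusted p = 2.65e-06).

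**Figure D2:**
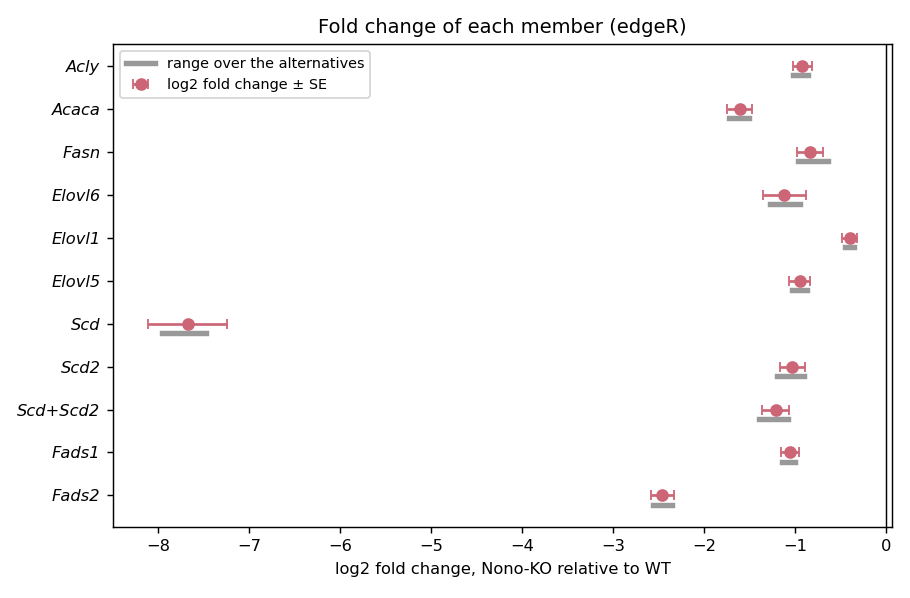
Change in Nono-KO against WT in log2 units (horizontal axis) for each enzyme gene and for Scd and Scd2 added together (vertical axis). Points are edgeR estimates with standard errors and grey bars are ranges over the alternative settings, all of them below 0, from Scd at -7.68 to Elovl1 at -0.40.

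Ratios between counts within a library need no scaling, and 4 were compared between the groups by a two-sided exact permutation test with 3 libraries in each group, which cannot give a p under 0.1. The ratio of Scd to Scd2 counts was 0.10, 0.146 and 0.145 in WT and 0.00135, 0.00128 and 0.00133 in Nono-KO, a difference in mean log2 ratio of -6.50 with 0.5 added to each count (exact p = 0.1, adjusted 0.133 over the 4 ratios). With the few Scd counts of Nono-KO this value depends on the added count, and was -6.61 with none and -6.41 with 1 added. The ratio of Fads2 to Fads1 was 0.790, 1.04 and 1.05 in WT and 0.339, 0.387 and 0.352 in Nono-KO, a difference of -1.41 computed in the same way (exact p = 0.1, adjusted 0.133). For Fasn to Acaca the difference was 0.79 in log2 (exact p = 0.1, adjusted 0.133). In these 3 ratios the groups did not overlap. The ratio of Elovl6 to Elovl5 was 0.123, 0.201 and 0.167 in WT and 0.182, 0.114 and 0.142 in Nono-KO. Its groups overlapped, and the log2 difference of -0.15 (exact p = 0.7, adjusted 0.7) changed sign when WT replicate 2 or Nono-KO replicate 2 was left out (0.01 in both cases).

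**Figure D3:**
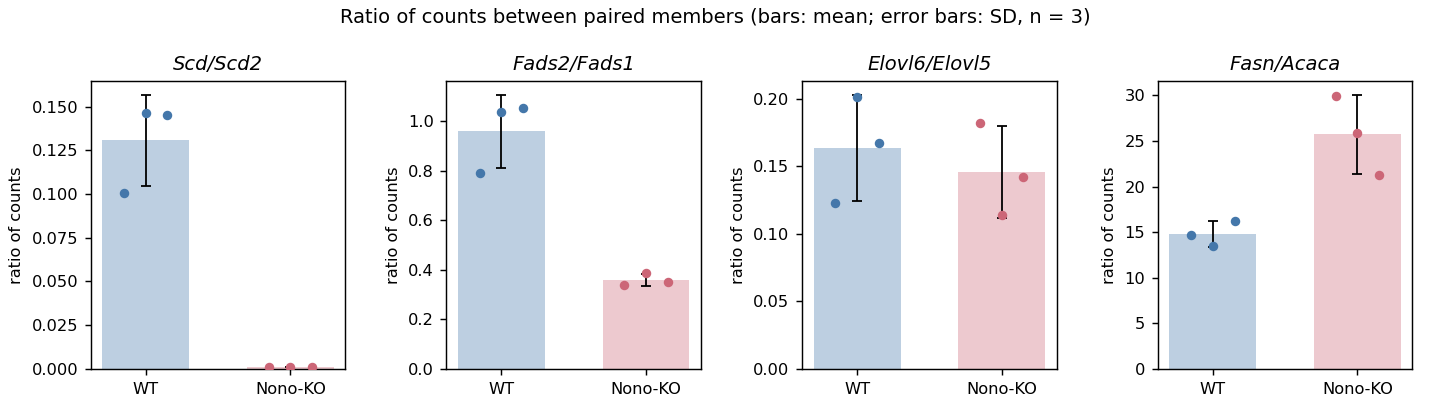
Ratio of counts between paired enzyme genes (vertical axes, from 0) in WT and Nono-KO libraries, with means as bars and SD as error bars. The Nono-KO points lie below the WT points for Scd/Scd2 and Fads2/Fads1, above them for Fasn/Acaca, and among them for Elovl6/Elovl5.

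WT replicate 1 was often the lowest of the WT libraries. It had the lowest WT value for 8 of the 10 genes and the highest for Fads1 and Elovl5. WT replicate 3 had the highest WT value for 6 of the 10. The coefficient of variation among WT libraries ran from 3.57% for Elovl5 to 37.7% for Scd, and it was above that among Nono-KO libraries for 9 of the 10 genes. Without WT replicate 1 all 10 genes still fell, and the log2 fold changes lay between -7.96 for Scd and -0.45 for Elovl1.

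The desaturase genes of each pair lie near each other on chromosome 1 of the rat genome, and the sequence before their start sites is shown because members of each pair changed so unequally. RefSeq windows on the build GRCr8, with 250 bases before and 50 bases after the start site, were found for 7 of the 10 genes and not for Elovl6, Fasn and Acaca. The RefSeq gene models of Scd, Fads1 and Fads2 extend upstream of the start site used, and RefSeq gives Scd as an older name of Scd2, so that rows were matched by current symbol. The windows were searched on both strands for CCAAT (the CCAAT box, bound by NF-Y), CACGTG (an E-box), TCACNCCAC (the sterol regulatory element bound by SREBP) and GGGCGG (the GC box, bound by Sp1). The windows of Scd (chr1:253231682-253231981, minus strand), Scd2 (chr1:253118127-253118426, plus strand), Fads1 (chr1:216252442-216252741, plus strand) and Fads2 (chr1:216171984-216172283, minus strand) read as follows, 5′ to 3′ along the gene, with matches in capitals.
Scd: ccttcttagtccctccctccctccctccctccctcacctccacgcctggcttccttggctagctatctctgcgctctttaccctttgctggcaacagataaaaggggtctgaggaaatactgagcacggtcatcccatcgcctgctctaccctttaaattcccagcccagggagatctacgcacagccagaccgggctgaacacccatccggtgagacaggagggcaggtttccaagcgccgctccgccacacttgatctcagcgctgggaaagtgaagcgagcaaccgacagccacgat
Scd2: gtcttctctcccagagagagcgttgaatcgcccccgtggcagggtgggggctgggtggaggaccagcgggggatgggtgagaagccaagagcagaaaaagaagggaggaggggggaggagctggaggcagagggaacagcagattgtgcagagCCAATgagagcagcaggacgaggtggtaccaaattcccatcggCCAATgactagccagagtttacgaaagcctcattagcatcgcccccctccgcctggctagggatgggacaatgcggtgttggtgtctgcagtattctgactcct
Fads1: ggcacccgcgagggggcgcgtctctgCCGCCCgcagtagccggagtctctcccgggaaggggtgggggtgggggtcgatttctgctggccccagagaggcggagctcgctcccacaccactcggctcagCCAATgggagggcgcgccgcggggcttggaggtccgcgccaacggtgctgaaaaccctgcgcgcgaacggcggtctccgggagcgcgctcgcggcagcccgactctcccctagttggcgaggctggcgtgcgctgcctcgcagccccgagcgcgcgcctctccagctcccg
Fads2: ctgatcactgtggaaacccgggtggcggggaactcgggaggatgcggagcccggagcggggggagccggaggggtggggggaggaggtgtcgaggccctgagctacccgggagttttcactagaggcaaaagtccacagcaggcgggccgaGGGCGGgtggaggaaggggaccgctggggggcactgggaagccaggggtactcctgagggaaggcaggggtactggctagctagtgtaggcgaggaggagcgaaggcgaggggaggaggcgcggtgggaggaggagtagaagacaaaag

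The window of Scd2 held a pair of CCAAT boxes, beginning 97 and 54 bases before the start site, and that of Scd held none of the 4 motifs. Fads1 held a CCAAT box 121 bases before the start site and a GC box on the opposite strand 224 bases before it, and Fads2 held a GC box 99 bases before it. Of the 7 windows, 4 held CCAAT (Scd2, Fads1, Elovl5 and Acly), against 37.5% of all 33469 windows. GGGCGG was in 3 (Fads1, Fads2 and Acly), against 33.1% of all windows, and CACGTG in 1 (Elovl5), against 6.42%. TCACNCCAC was in 0 of the 7 and in 1.12% of all windows. No matches overlapped, a match is not evidence of binding, and a missing match says only that these letters are not in this window.

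Of the other desaturase and elongase genes, 4 had a row and 2 of these passed the filter on low counts. Fads3, a Fads paralog with activity on sphingoid bases, is next to Fads2 in the order of tested genes found in the GRCr8 annotation. It had 446, 477 and 538 CPM in WT and 457, 465 and 410 CPM in Nono-KO. The groups overlapped, with a log2 fold change of -0.13 ± 0.09 (SE, edgeR adjusted p = 0.215). It passed with total counts as the scaling (edgeR adjusted p = 0.0422). Elovl4, which makes the longest chains known in retina and skin, was counted 29, 29 and 30 times in WT and 4, 12 and 20 times in Nono-KO. Its log2 fold change was -1.22 ± 0.39 (SE, edgeR adjusted p = 0.0151), and -0.83 with an edgeR adjusted p = 0.0551 without Nono-KO replicate 1. Scd4, which lies between Scd2 and Scd, was counted 3, 1 and 0 times in WT against 0, 0 and 2 times in Nono-KO, and Fads6 0, 0 and 0 against 5, 7 and 1 times, both below the filter. Without a filter Fads6 rose. Elovl2, Elovl3 and Elovl7 were not analysed here.

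Genes of the steps before the fatty acid synthase fell or rose no more often than all tested genes. Of 9 tested genes that supply acetyl-CoA, malonyl-CoA or NADPH, 2 fell, 1 rose and 6 did not pass, with a median log2 fold change of -0.07. Over all tested genes, 38.1% fell and 34.2% rose, the shares to set beside this and the later lists. Me2, a mitochondrial malic enzyme (log2 fold change -0.66), and Acss2, which makes acetyl-CoA from acetate (-0.49), fell. The citrate carrier Slc25a1, which exports the substrate of Acly, rose by 0.37 ± 0.13 (SE). Pgd, an NADPH-forming enzyme of the pentose phosphate pathway, had 363 ± 46.4 CPM in WT against 422 ± 16.0 CPM in Nono-KO (SD over 3 libraries each), with an edgeR adjusted p = 0.0625. The count that fell was 4 without WT replicate 1 and 1 without WT replicate 3, and the count that rose was 0 without WT replicate 2, Nono-KO replicate 1 or Nono-KO replicate 2, and 2 without WT replicate 3 or Nono-KO replicate 3. With DESeq2 3 genes of this list rose, and 2 rose with DESeq2 size factors or with at least 1 CPM in 3 libraries as the filter. The isozyme Acacb had 0 to 7 counts in any library.

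Partner enzymes of elongation and desaturation were called in either direction no more often than all tested genes. Here 3 of 10 fell and 2 rose, with 5 not passing and a median of -0.01 (all tested genes: 38.1% fell, 34.2% rose). Hsd17b12, the ketoreductase of the elongation cycle, fell (log2 fold change -0.67). Hacd3 and Hacd1, dehydratases of the same cycle, rose by 0.50 and 0.35, and Tecr, the final reductase, had a log2 fold change of -0.02 (edgeR adjusted p = 0.898). Of the electron donors, Cyb5r4 (-0.93) and Cyb5a, the cytochrome b5 used by the desaturases (-0.43), fell. Cyb5r3 (0.05), Cyb5r1 (0.02) and Cyb5b (-0.08) did not pass. The count that rose was 1 without WT replicate 2, WT replicate 3, Nono-KO replicate 2 or Nono-KO replicate 3, and also with total counts as the scaling or without a filter.

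Most long-chain acyl-CoA synthetases, which activate free fatty acids, were lower in Nono-KO cells. Of 7 tested genes of this list 4 fell, 2 rose and 1 did not pass (median -0.81). The shares of all tested genes were 38.1% falling and 34.2% rising. Those that fell were all of the Acsl family. Acsl4, which prefers arachidonic acid, had 15.6, 26.1 and 18.2 CPM in WT and 2.87, 2.84 and 2.81 CPM in Nono-KO, a log2 fold change of -2.81 ± 0.21 (SE). Acsl5 (-1.31) and Acsl1 (-1.16) fell as well. The fatty acid transport proteins Slc27a1 (0.40) and Slc27a4 (0.29) rose, with 1 gene rising without WT replicate 1, WT replicate 2, Nono-KO replicate 1 or Nono-KO replicate 2.

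The separate fatty acid synthesis pathway inside mitochondria, which makes the precursor of lipoic acid, had mostly higher RNA levels in Nono-KO. Here 7 of 10 genes rose and 1 fell, against 34.2% and 38.1% of all tested genes. The other 2 did not pass, and the median was 0.68. Hsd17b8, a ketoacyl reductase subunit, rose by 1.24 ± 0.13 (SE), Mecr, the enoyl reductase, by 0.97 and Mcat, the malonyl transferase, by 0.85 on the log2 scale. Ndufab1, the mitochondrial acyl carrier protein, had a mean of 62.7 ± 3.85 CPM in WT and 102 ± 3.79 CPM in Nono-KO (SD of 3 libraries). The gene that fell, named after its value was seen, was the lipoyltransferase Lipt1 (-1.35).

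**Figure D4:**
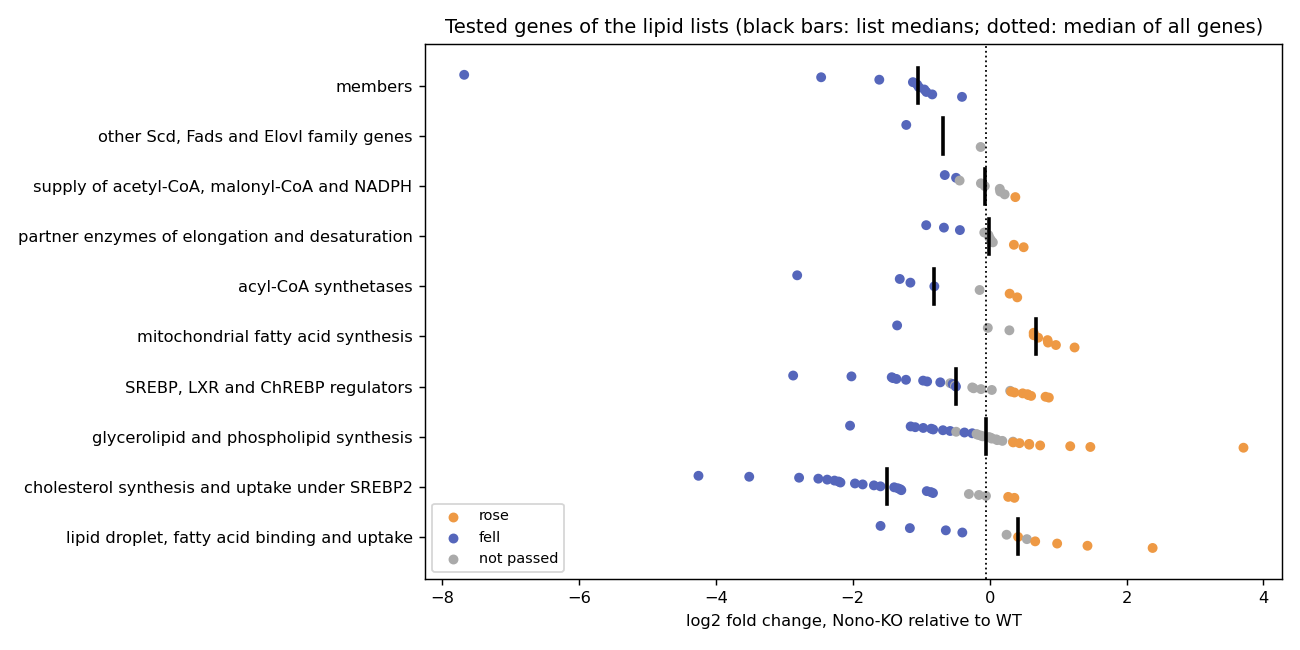
Change in Nono-KO against WT in log2 units (horizontal axis) for tested genes of the 10 lipid lists (vertical axis). Each point is 1 gene, with orange for genes that rose, blue for those that fell and grey for the rest, black bars are list medians (-1.05 for the enzyme genes described here, -1.50 for cholesterol synthesis, 0.68 for mitochondrial fatty acid synthesis) and the dotted line is the median of all tested genes at -0.05.

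Among the regulators of lipid synthesis, Srebf2 and Insig1 were lower and Scap was higher in Nono-KO cells. Of 27 tested genes of the SREBP, LXR and ChREBP systems and their cofactors, 12 fell, 8 rose and 7 did not pass (median -0.49). These counts are to be read beside 38.1% falling and 34.2% rising over all tested genes. Srebf1, whose SREBP-1 proteins are best known for driving fatty acid synthesis genes, had 99.6, 89.0 and 116 CPM in WT and 90.1, 87.9 and 80.8 CPM in Nono-KO. The groups overlapped, and the log2 fold change was -0.23 ± 0.11 (SE, edgeR adjusted p = 0.0627). It passed with total counts as the scaling (-0.29), without a filter on low counts (-0.27), without WT replicate 1 (-0.25) and without WT replicate 2 (-0.33). Srebf2, whose product mainly drives cholesterol genes, had 205, 235 and 269 CPM in WT and 96.6, 95.1 and 84.2 CPM in Nono-KO, a log2 fold change of -1.36 ± 0.11 (SE, edgeR adjusted p = 8.42e-07).

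Insig1 and Scap have opposite roles in SREBP activation. Insig1, which retains SREBP in the endoplasmic reticulum and is itself an SREBP target, had 46.2, 73.9 and 72.9 CPM in WT and 8.13, 9.80 and 8.42 CPM in Nono-KO, a log2 fold change of -2.87 ± 0.18 (SE). Scap, the escort that carries SREBP to the Golgi, had 111, 90.6 and 110 CPM in WT and 192, 190 and 167 CPM in Nono-KO, a log2 fold change of 0.82 ± 0.10 (SE). Insig2 had a log2 fold change of 0.30 (edgeR adjusted p = 0.0535). It passed with DESeq2 size factors (0.35, edgeR adjusted p = 0.0238), with DESeq2 itself (adjusted p = 0.0406) and with at least 1 CPM in 3 libraries as the filter (edgeR adjusted p = 0.0442). Mbtps1, a protease that cleaves SREBP, fell by 0.51 on the log2 scale.

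Of the oxysterol receptors, Nr1h2 (LXR beta) rose by 0.56 ± 0.09 (SE), from 77.6, 68.8 and 77.2 CPM in WT to 112, 117 and 101 CPM in Nono-KO. Nr1h3 (LXR alpha) was counted 2, 1 and 2 times in WT against 8, 7 and 3 times in Nono-KO, and Mlxipl, which encodes the carbohydrate-responsive factor ChREBP, had 0 to 2 counts in any library. Both were below the filter, and Thrsp was not analysed here. Rxra, the partner of the oxysterol receptors, rose by 0.61. Sp1, a general activator of GC-box promoters, fell (log2 fold change -2.02). Prkaa1, a catalytic subunit of the kinase AMPK that restrains acetyl-CoA carboxylase, fell (-1.43). The AMPK subunits Prkab2 (-0.91) and Prkab1 (-0.54) fell as well, Prkaa2 did not pass (-0.51) and Prkag1 rose (0.86).

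**Figure D5:**
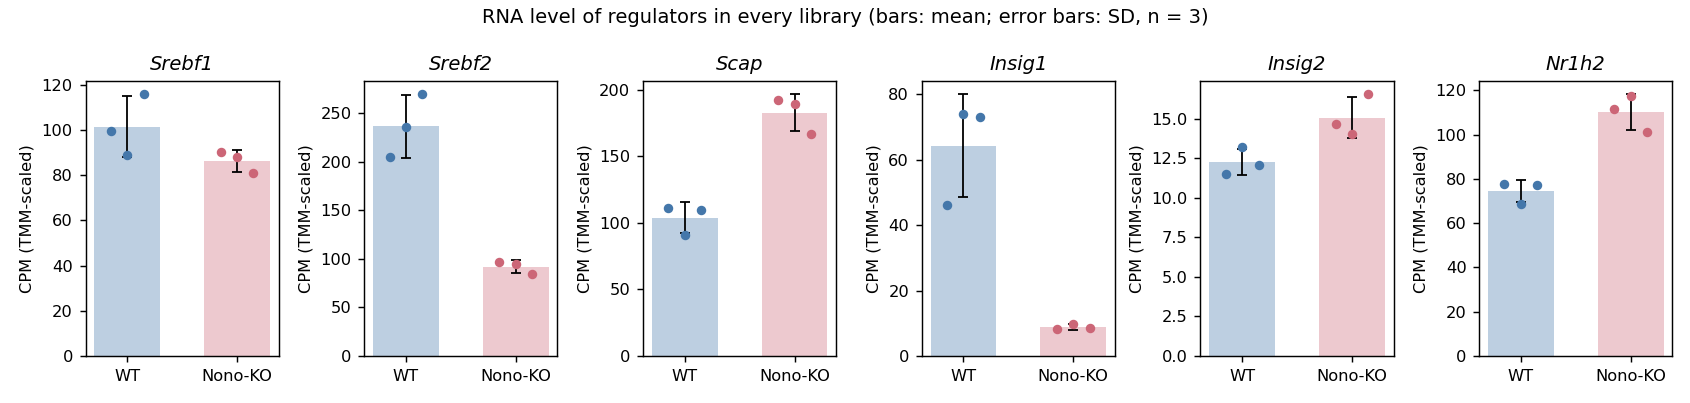
RNA level in CPM after TMM scaling (vertical axes, from 0) of 6 regulators of lipid synthesis in WT and Nono-KO cells. Points are libraries, bars are means and error bars are SD (n = 3), and Nono-KO points lie below WT points for Srebf2 and Insig1, above them for Scap, Insig2 and Nr1h2, and overlap them for Srebf1.

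Genes of cholesterol synthesis and uptake, which share SREBP control, were also mostly lower. Here 19 of 24 fell and 2 rose, against 38.1% and 34.2% of all tested genes. The other 3 did not pass, and the median of the 24 was -1.50. Msmo1, a sterol methyl oxidase, had 171, 232 and 226 CPM in WT and 17.2, 18.7 and 19.2 CPM in Nono-KO. Hsd17b7 (-2.78) and Stard4 (-2.50) fell, the abundant Fdps (-0.92) fell, and the early mevalonate kinases Pmvk (0.36) and Mvk (0.27) rose. Without Nono-KO replicate 1 or 2 none of the 24 rose, and 1 rose without WT replicate 1, 2 or 3, with total counts as the scaling or without a filter. Among the named genes, WT replicate 1 was the lowest WT library for Msmo1, Hsd17b7, Fdps and Mvk and the highest for Stard4 and Pmvk.

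Genes that use fatty acids for glycerolipids changed in both directions, in neither more often than all tested genes. Of 30 tested genes of glycerolipid and phospholipid synthesis, 10 fell, 8 rose and 12 did not pass (median -0.06). Among all tested genes 38.1% fell and 34.2% rose. Lpin1, a phosphatidate phosphatase (log2 fold change -2.04), Gpat3, an acyltransferase of the first step (-1.15), and Pcyt1a, which controls phosphatidylcholine synthesis (-1.09), fell. Dgat2, which makes triglyceride, had a mean of 25.0 ± 1.37 CPM in WT and 69.3 ± 2.15 CPM in Nono-KO (SD of 3 libraries), a log2 fold change of 1.47 ± 0.09 (SE). The phosphatidylserine synthases Ptdss2 (0.58) and Ptdss1 (0.34) and the phosphatase Lpin3 (0.58) rose.

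RNA levels of genes for lipid droplet surface proteins changed in opposite directions. Of 11 tested genes for lipid droplets, fatty acid binding and uptake, 5 rose, 4 fell and 2 did not pass (median 0.42). For all tested genes the shares were 34.2% rising and 38.1% falling. Plin2, a droplet coat protein, had 297, 364 and 337 CPM in WT and 149, 145 and 151 CPM in Nono-KO, while its relative Plin3 had 90.3, 94.8 and 85.5 CPM in WT and 247, 250 and 231 CPM in Nono-KO. Abhd5, a coactivator of triglyceride lipase (log2 fold change -1.59), and Lpl, the lipoprotein lipase (-0.64), fell as well. Fitm1, a droplet-forming protein of muscle (2.38), and Bscl2, the droplet assembly protein seipin (0.99), rose. Without Nono-KO replicate 1 the number that fell was 2.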

How the data were processed

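RNA-seq counts of H9c2 cells were analysed, with 3 WT and 3 Nono-KO libraries grouped by the submitters' titles. The authors deposited raw read counts per gene symbol from stranded poly(A) libraries, unscaled and unpooled. The single-library files hold the values of the joint table. Trimmomatic, HISAT2, HTSeq and mRatBN7.2 appear in the submitters' notes, Bowtie2 and Rn6 in the study's methods. Not given in the sources used here are versions, annotation and strand setting, so reads of paralogs or overlapping genes may have been split or dropped.

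Counts were tested in R 4.3.3 with the quasi-likelihood test of edgeR 4.0.16 (robust dispersions, TMM scaling, default filterByExpr), Nono-KO relative to WT, with Benjamini-Hochberg adjustment over 12028 genes. A gene is said to rise or fall below an adjusted p of 0.05. The SE is the size of the log2 fold change over root F. CPM are TMM-scaled and not corrected for transcript length, so shares, sums and rankings of abundance across genes also reflect transcript length. Ratios are printed as counted, and their log2 means and tests used 0.5 added to each count. At 17612958 to 19253858 counts per library, genes with a few counts have no precise fold change.

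The genes, lists and rules were chosen with earlier results of these data known. Named genes were the 10 enzymes, Nono, family members, 9 regulators and, per list, up to 3 with the largest change in each direction at 5 CPM or more and the most abundant. The promoter motifs were chosen after the data were seen. On simulated data for Nono-KO against WT with 11900 genes, edgeR found 23 of 49 genes at a 1.5-fold change, 40 of 50 at 2-fold, 49 of 50 at 4-fold and 50 of 50 at 8-fold, with 5 false calls among 11701. In that simulation 11701 of 11900 genes were unchanged, unlike the data. Scaling and false calls where most genes change were therefore not tested. Replicates within a group differed by more than sampling noise (chi-square per degree of freedom 2.60 to 24.4). Alternatives were DESeq2 1.42.0, other scalings, filters and thresholds, a replicate block, summed Scd and Scd2 counts, and leaving out each library. DESeq2 with the study's thresholds and ratios with no added count were chosen after seeing the data. ATAC-seq data were not analysed here. No sequence of a genome of the authors' build was used, and GRCr8 served for promoter windows and gene order only.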

Additional observations from a re-analysis of the deposited data

How the results depend on the processing

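Under every other test, scaling, filter, block and left-out library tried, each of the 10 enzyme genes stayed lower in Nono-KO at an adjusted p under 0.05. The weakest was Elovl1, with a log2 fold change of -0.46 to -0.35 and an adjusted p up to 0.00876. At the study's stricter threshold (p adjusted below 0.01, change beyond 1 log2 unit), 6 of the 10 enzyme genes (5 with DESeq2), 31 genes of the other lipid lists (56 otherwise) and 2252 of all genes (4578 otherwise) fell, and 5 of the list genes (35 otherwise) and 1294 of all genes (4108 otherwise) rose. Scaling moved the median log2 fold change of all genes from -0.11 (total counts) to 0.0032 (DESeq2 size factors).

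Leaving out 1 library at a time gave log2 fold changes of -1.40 to -1.08 for Scd and Scd2 summed, and ratio differences of -6.68 to -6.41 for Scd/Scd2, -1.54 to -1.33 for Fads2/Fads1, 0.67 to 0.92 for Fasn/Acaca and -0.35 to 0.01 for Elovl6/Elovl5, the last reversing without WT replicate 2 (0.0083) and without Nono-KO replicate 2 (0.0082). Same-numbered libraries did not deviate together (correlations over genes of 0.0454, -0.165 and -0.192). Across different numbers the highest correlation was 0.251, for WT replicate 2 with Nono-KO replicate 3. Whether libraries shared a batch was not tested. With the replicate number as a block, 4443 genes fell and 3944 rose, all 10 enzyme genes fell, and Scd and Scd2 summed had a log2 fold change of -1.19, and 1 cholesterol gene rose in place of 2. Genes with a few counts, such as Scd in Nono-KO, are limited by depth.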

Other observations

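Tested genes around the desaturase pairs, in the gene order of GRCr8, moved in both directions. This order holds the 11288 of 12028 tested genes whose symbols were found in that annotation. On the Scd2 side, the nearest tested genes were Bloc1s2 (log2 fold change 0.69, rose), Cwf19l1 (-0.67, fell) and Chuk (-1.78, fell). On the Scd side they were Ndufb8 (1.06, rose), Hif1an (0.19, edgeR adjusted p = 0.115) and Slf2 (-1.60, fell). Ndufb8, a subunit of respiratory complex I, was the nearest of these on the Scd side. Genes that were not tested or not found in the annotation may lie between. Ndufb8 had 185 CPM in WT and 386 CPM in Nono-KO on average, while Scd had 77.3 and 0.37 CPM.

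Beside the Fads genes, Rab3il1 (1.76), Best1 (1.48) and the ferritin heavy chain Fth1 (0.92) rose on the Fads3 side. On the Fads1 side Fen1 fell by 0.32 on the log2 scale, and Tmem258 (0.59) and Myrf (0.47) rose. Fads2, with a log2 fold change of -2.46, thus lies between Fads3 at -0.13 and Fads1 at -1.06. The neighbours were looked up after the values of the desaturases were known.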
